A study of Mus musculus with 36 samples.

Results

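The genes described here are 36 targets and regulators of NF-kB, chosen by symbol from the 51826 genes counted in poly(A) RNA of cultured lung endothelial cells (ECs). They comprise 11 chemokines, 11 cytokines, 10 regulators of the pathway and 4 endothelial effectors, and each symbol matched 1 gene identifier. The study asked what progerin, the truncated lamin A of Hutchinson-Gilford progeria syndrome (HGPS), does to ECs. ECs were isolated with ICAM-2 beads from mice aged 10 to 15 days, cultured without treatment and harvested at passage 3. Prog-Tg ECs carried the trans-activator Cdh5TA and the TetOp-LAG608G minigene, a human lamin A minigene with the HGPS mutation that yields progerin together with human lamin A. LA-Tg ECs carried Cdh5TA with the TetOp-LA minigene of wildtype human lamin A, and WT ECs came from littermates. Each genotype had 3 libraries, 9 of the 36 libraries of the series. The VE-cadherin (Cdh5) promoter drives the trans-activator and thereby restricts the transgene to endothelium, all mice had a mixed background from crossing FVB into C57BL/6J, and the cells had been passaged in culture. The labels name separate replicates but no litters, so p-values measure the spread between these cultures.

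NF-kB proteins are transcription factors that inhibitor proteins of the IkB family hold in the cytoplasm. Cytokines such as Tnf and Il1b, or damage signals, activate kinases that mark the inhibitors for degradation, and the freed dimers switch on chemokines, cytokines and adhesion molecules as well as their own inhibitors. In endothelium the programme is best known for recruiting leukocytes to inflamed vessels, and many of the same secreted factors belong to the senescence-associated secretory phenotype (SASP).

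Library totals ranged between 17961152 and 67602012 counts, the deepest being Prog-Tg replicate 3. Lmna, the mouse counterpart of the transgene, stood at 275, 469.6 and 548 CPM (counts scaled to a common library total, with TMM factors) in Prog-Tg, 251, 401 and 421 in LA-Tg and 284, 177 and 200.4 in WT ECs, a log2 fold change of 0.97 ± 0.32 (SE) for Prog-Tg and 0.70 ± 0.32 for LA-Tg versus WT. Reads of the human transgene that align to mouse Lmna cannot be told from its own, so this does not check the genotypes. Of 10 endothelial markers 9 were at 66.2 CPM or more in every library and only Vwf was low (1.04 to 5.58 CPM). All 8 lymphocyte markers, 7 of 10 macrophage markers (Ptprc and Adgre1 among them) and 6 of 7 epithelial markers were under 1 CPM in every library. The other macrophage markers were Cd68 (9.11 to 19.4 CPM), Lyz2 (0.673 to 32.3, highest in Prog-Tg replicate 1) and Mrc1 (0.109 to 32.6, highest in WT replicate 2). The other epithelial marker was Krt18 (0.961 to 12.6 CPM). Fibroblast markers summed to 347, 114 and 839 CPM in Prog-Tg, 21.1, 107 and 615 in LA-Tg and 162, 100.5 and 422 in WT ECs, and smooth muscle and pericyte markers to between 4.31 and 408. Libraries also differed in lymphatic markers and in the sum of 4 Y-linked transcripts, which was 0 to 0.0519 CPM in Prog-Tg replicate 2 and LA-Tg replicates 1 and 2 but 104.6 to 376.5 CPM in the other 6. The part of the macrophage, fibroblast, smooth muscle and Y-linked levels in the results was not tested.

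Across the 33 genes that passed the filter on low counts, Prog-Tg ECs had higher mean levels than WT ECs for most, but the spread between libraries of 1 genotype was wide. Versus WT, the log2 fold change in Prog-Tg was above 0 for 28 of the 33 genes, against 49% of all 14584 genes tested, and the median was 0.96, against -0.01 over all genes. At the study thresholds (unadjusted p under 0.05 and a fold change over 1.5) 5 were higher (Ccl20, Il15, Ptgs2, Vcam1 and Sele) and 0 lower, beside 0.939% of all genes higher and 1.82% lower. The 3 Prog-Tg libraries lay above all 3 WT libraries for 7 of the 33 and below them for 1, where 6.56% and 7.17% of all genes did so. For LA-Tg versus WT, 18 of 33 were above 0 (49% of all genes), the median was 0.07, and 2 were higher (Ccl20 and Il15) and 0 lower at the study thresholds, beside 0.35% and 0.329% of all genes. The groups did not overlap for 1 higher and 1 lower gene, beside 1.92% and 2.03% of all genes. Prog-Tg versus LA-Tg gave 29 of 33 above 0 (49.6% of all genes), a median of 0.31, and 4 higher (Cxcl5, Lif, Csf2 and Bcl3) and 0 lower at the study thresholds, beside 0.555% and 0.693% of all genes. Here 4 genes had Prog-Tg libraries above all LA-Tg libraries and 0 below, beside 2.76% and 3.14% of all genes. Both comparisons with WT share the WT libraries, and the third reuses both transgenic groups. The list was chosen with earlier results of these data known, so these shares describe it and test nothing. Its genes also moved together across libraries, WT replicate 2 being the lowest for 20 of the 33, so they are not separate observations.

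Single libraries moved these counts. For Prog-Tg versus WT 1 gene passed without Prog-Tg replicate 3 and 1 without WT replicate 2, but 10 without LA-Tg replicate 2, which enters through the shared estimate of the spread. The count of all genes at an unadjusted p under 0.05 moved likewise, to 185, 148 and 1252 in these fits, against 496 with all libraries. For LA-Tg versus WT 0 passed without LA-Tg replicate 2 and 4 without WT replicate 2, of which 3 were lower, beside 145 and 226 of all genes against 121 with all libraries. Prog-Tg versus LA-Tg gave 13 without LA-Tg replicate 2, with a median of 1.25, whereas leaving out LA-Tg replicate 1 gave 0 and LA-Tg replicate 3 or Prog-Tg replicate 3 gave 1. Over all genes 1725 were then at an unadjusted p under 0.05 without LA-Tg replicate 2, and 177, 166 and 96 in the other fits, against 250 with all libraries.

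No gene passed an adjusted p of 0.05 with edgeR in any comparison (0% of all genes), and the smallest adjusted p of a listed gene was 0.83 for Prog-Tg versus WT and 1.00 for both others. At an unadjusted p under 0.05 edgeR counted 496 genes for Prog-Tg versus WT, 121 for LA-Tg versus WT and 250 for Prog-Tg versus LA-Tg. DESeq2 called 2, 0 and 7 genes in these comparisons and limma-voom 0 in each, and 0 of them were among the 36. Differences described below as past the study thresholds are therefore unadjusted. In such bulk RNA, more cells of a type and more RNA per cell cannot be told apart. The listed genes with the highest levels per transcript length were Ccl2 (845 RPKM, CPM divided by exon length in kilobases, averaged over the 9 libraries), Ccl7 (248), Nfkbia (151) and Csf3 (74.3). From lowest to highest library the level varied over 10-fold in 12 of the 27 genes with a count in every library and under 2-fold in 2, Nfkb1 and Traf1.

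**Figure D1:**
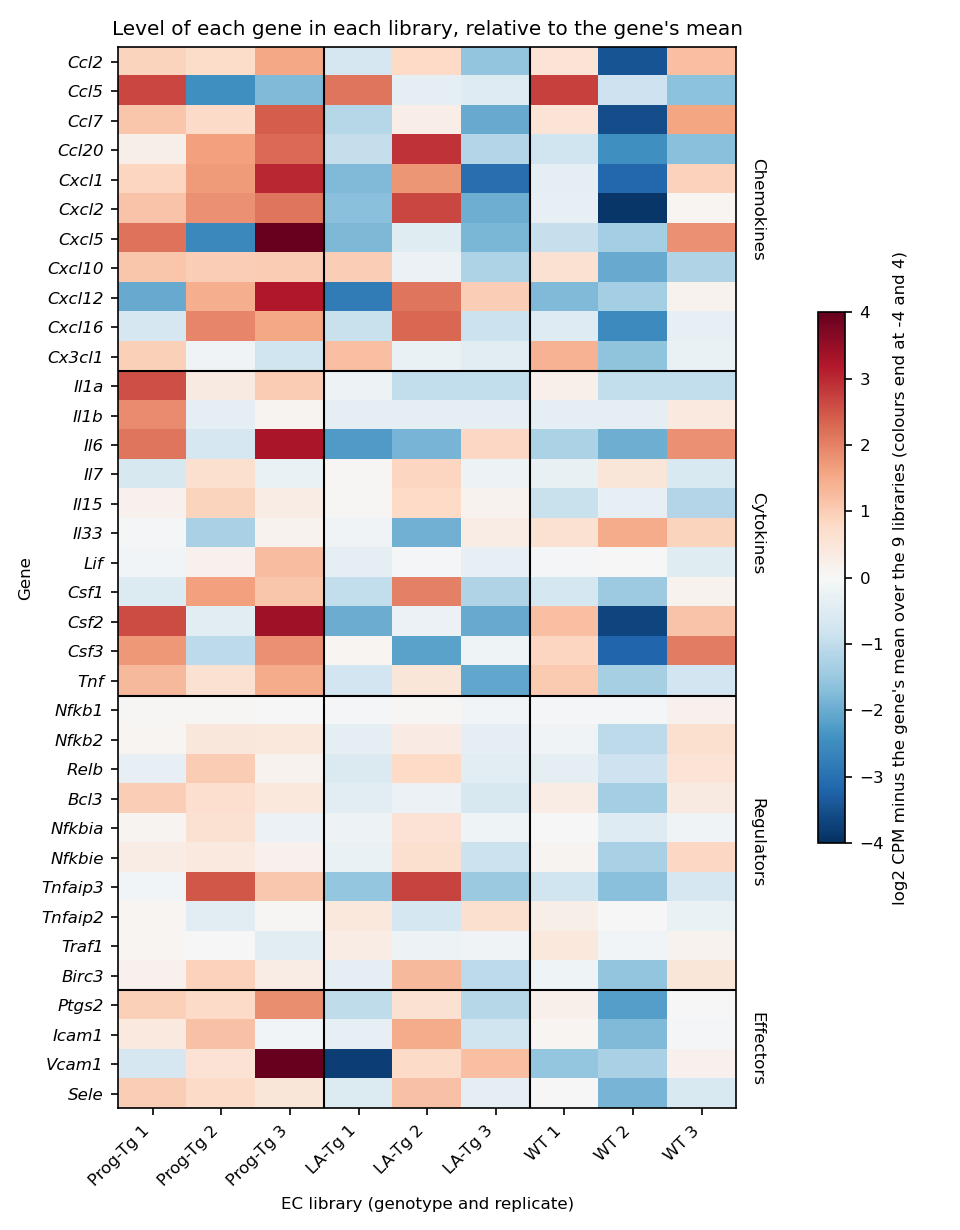
Level of the 36 genes (rows, by role) in each of the 9 EC libraries (columns, Prog-Tg, LA-Tg and WT from left to right), as log2 CPM minus the gene's own mean, red above and blue below it. WT replicate 2 is blue for most genes and was the lowest library for 20 of the 33 tested, and Prog-Tg replicate 3 was the highest for 11.

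Libraries of 1 genotype did not behave alike for these genes. The median deviation of the 33 genes from their own means was 0.23, 0.65 and 1.09 on the log2 scale in Prog-Tg, -0.54, 0.60 and -0.51 in LA-Tg and -0.06, -1.36 and 0.14 in WT replicates 1, 2 and 3. LA-Tg replicate 2 thus stood with the Prog-Tg libraries and WT replicate 2 stood apart below all others. Averaged as log2 CPM, 6 markers of lymphatic endothelium (Prox1, Lyve1, Flt4, Pdpn, Reln and Mmrn1) stood at 7.07, 7.16 and 8.09 in Prog-Tg, 9.96, 5.44 and 9.84 in LA-Tg and 9.21, 10.17 and 9.23 in WT ECs. This marker mean was therefore lowest in LA-Tg replicate 2 and highest in WT replicate 2, and the 3 Prog-Tg libraries lay below all WT libraries. In summed level the same markers reached 5245, 1648 and 2549 CPM in Prog-Tg, 9244, 1435 and 7777 in LA-Tg and 6377, 8605 and 5105 in WT ECs. Prog-Tg replicate 1 thus exceeded WT replicate 3. All 6 were detected in every library, but Mmrn1 was near the floor in Prog-Tg replicate 1 (0.11 CPM) and LA-Tg replicate 2 (0.12). It stood at 292 to 710 CPM in WT ECs, so it lowers the log2 means of those libraries. Prox1, Lyve1 and Flt4 in Prog-Tg replicate 1 (861, 2121 and 1808 CPM) were above WT replicate 3 (718, 2002 and 1081). Pdpn and Reln, like Mmrn1, were below it. With this marker mean as a term in the fit, 0 of 33 genes passed the study thresholds for Prog-Tg versus WT, the median was 0.44 and 23 of 33 were above 0. Over all genes the term left 82 at an unadjusted p under 0.05, against 496 without it. For LA-Tg versus WT 1 passed with this term, Il33, which was lower, and for Prog-Tg versus LA-Tg 4 passed, Cxcl1, Cxcl5, Csf2 and Ptgs2. Over all genes 102 and 204 were then at an unadjusted p under 0.05, against 121 and 250 without the term. The part of the lymphatic markers in the results was not tested beyond this fit.

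**Figure D2:**
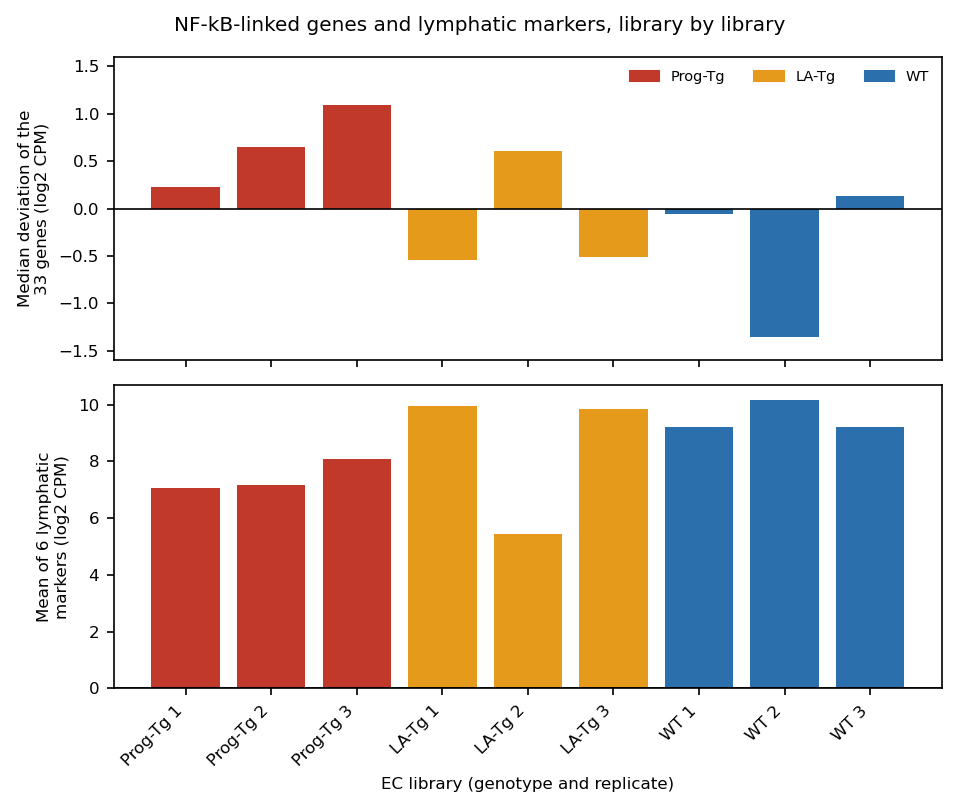
Median deviation of the 33 tested genes from their own means (top, log2 CPM) and mean log2 CPM of 6 lymphatic markers (bottom) in each EC library, with Prog-Tg in red, LA-Tg in orange and WT in blue. The library with the lowest gene median, WT replicate 2 (-1.36), has the highest marker mean (10.17), and LA-Tg replicate 2 has a gene median of 0.60 with the lowest marker mean (5.44).

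Leaving out WT replicate 2 and LA-Tg replicate 2 together, a choice made after seeing the data, left 26 of 34 genes above 0 for Prog-Tg versus WT with a median of 0.69 and 7 past the study thresholds. For LA-Tg versus WT it left 7 of 34 above 0, with a median of -0.65 and 9 past the thresholds, 8 of them lower. Prog-Tg versus LA-Tg then had 29 of 34 above 0, a median of 1.25 and 19 past the thresholds, 18 of them higher. Over all genes 560, 561 and 2243 were at an unadjusted p under 0.05 in these 3 fits, against 496, 121 and 250 with all libraries, so the counts of the listed genes moved with those of all genes.

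Chemokines guide leukocytes along gradients to the vessel wall. Of the 10 tested, 8 were above 0 in Prog-Tg versus WT with a median of 2.21, 6 in LA-Tg versus WT with a median of 0.25 and 9 in Prog-Tg versus LA-Tg with a median of 0.75. Ccl20, the ligand of Ccr6 that attracts lymphocytes and dendritic cells, was the only chemokine past the study thresholds versus WT with edgeR. The gene (ENSMUSG00000026166, chromosome 1 from 83116766 to 83119167 of GRCm38) was rare, with 7, 21 and 125 counts in Prog-Tg, 5, 48 and 2 in LA-Tg and 5, 0 and 1 in WT replicates 1, 2 and 3. In CPM these were 0.384, 1.15 and 1.81 in Prog-Tg, 0.13, 2.79 and 0.0999 in LA-Tg and 0.152, 0 and 0.0522 in WT ECs. All Prog-Tg libraries were above all WT libraries, whereas only LA-Tg replicate 2, the highest library of all, was clear of WT. The log2 fold change was 3.82 ± 1.49 for Prog-Tg versus WT (edgeR, unadjusted p = 0.0323, adjusted p = 0.83) and 3.61 ± 1.501 for LA-Tg versus WT (unadjusted p = 0.0415, adjusted p = 1.00). Between Prog-Tg and LA-Tg it was 0.21 ± 1.22, within the spread of the libraries. The Prog-Tg call was lost when Prog-Tg replicate 2 or 3 or WT replicate 2 or 3 was left out (3.25 to 3.82 on the log2 scale, unadjusted p between 0.0533 and 0.0865). For LA-Tg the same 4 libraries or LA-Tg replicate 2 ended it (0.59 to 3.62, unadjusted p between 0.0519 and 0.607), as did limma-voom (2.19, unadjusted p = 0.191), and without LA-Tg replicate 2 the value was 0.59. With the replicate number as a block both calls were lost (3.52, unadjusted p = 0.0668 for Prog-Tg and 2.59, unadjusted p = 0.17 for LA-Tg). Pooled over the libraries of a genotype, which covers counting error only, Ccl20 was present at a ratio of 17.6 (95% interval 7.88 to 48.6) in Prog-Tg to WT and 8.81 (95% interval 3.80 to 25.0) in LA-Tg to WT.

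Promoter sequence was at hand for 25 of the 36 genes, in RefSeq windows on GRCm38.p6 of 250 bases before to 50 after the start. Windows were searched on both strands for the NF-kB consensus, which is 10 bases long, and for the AP-1 element TGANTCA. Of the 25 genes 11 held an NF-kB match (44%), beside 4.51% of all 32851 windows and 5.14% of 27025 gene symbols. AP-1 matches were in 8 of the 25 (32%), beside 7.81% of windows and 8.97% of symbols, and 0 matches of one motif overlapped the other. Such matches helped to define NF-kB targets in the first place, so the shares describe the list, and a match is not a bound site. Stretches around the matches of 3 chemokines are shown, since these genes are the inducible leukocyte attractants described here. Capitals mark the NF-kB consensus, read 5′ to 3′ on the strand of the gene, from chr1:83116661-83116720 (plus strand), chr5:90891149-90891209 (plus strand) and chr5:90903777-90903837 (plus strand).
Ccl20: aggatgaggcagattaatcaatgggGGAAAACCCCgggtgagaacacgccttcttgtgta
Cxcl1: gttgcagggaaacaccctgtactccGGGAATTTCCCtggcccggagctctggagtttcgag
Cxcl2: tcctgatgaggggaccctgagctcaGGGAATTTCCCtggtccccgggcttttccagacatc
The capitals of Cxcl1 and Cxcl2 are the same 11 letters and hold a match on either strand, 1 base apart. They begin 71 bases before the Cxcl1 start and 97 before the Cxcl2 start, and the Ccl20 match begins 80 bases before its start. Cxcl10 also held matches, at 159 and 103 bases before its start, whereas Cxcl12 and Cx3cl1 had none in this window.

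Cxcl1, Cxcl2 and Cxcl5 attract neutrophils through Cxcr2. Cxcl2 counted 2.25, 3.71 and 4.61 CPM in Prog-Tg, 0.259, 6.68 and 0.2 in LA-Tg and 0.762, 0 and 1.04 in WT ECs, so every Prog-Tg library exceeded every WT library while LA-Tg replicate 2 was the highest of all. Its log2 fold change for Prog-Tg versus WT was 2.54 ± 1.48 (edgeR, unadjusted p = 0.122), short of the thresholds. Cxcl2 passed them in limma-voom but not in DESeq2. Cxcl1 was at 13.5, 24.1 and 60.2 CPM in Prog-Tg, 2.13, 25.4 and 0.849 in LA-Tg and 5.70, 0.769 and 13.98 in WT ECs. Replicate 3 of Prog-Tg was the highest library, but WT replicate 3 exceeded Prog-Tg replicate 1. The log2 fold change of 2.26 ± 1.34 for Prog-Tg versus WT did not pass with edgeR or DESeq2, but Cxcl1 passed in limma-voom. Both genes were again high in LA-Tg replicate 2 and low in the other LA-Tg libraries.

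Cxcl5 (ENSMUSG00000029371, chromosome 5 from 90759360 to 90761624) differed between the transgenic genotypes. It had 34, 0 and 925 counts in Prog-Tg, 2, 4 and 1 in LA-Tg and 5, 2 and 28 in WT ECs, which corresponds to 1.87, 0 and 13.4 CPM in Prog-Tg, 0.0519, 0.232 and 0.05 in LA-Tg and 0.152, 0.0961 and 1.46 in WT ECs. The Prog-Tg libraries ranged between the absence of any count in replicate 2 and the highest level of all in replicate 3, and thus overlapped both other genotypes. Versus LA-Tg the log2 fold change was 5.60 ± 1.98 (edgeR, unadjusted p = 0.0212, adjusted p = 1.00). It missed the thresholds without Prog-Tg replicate 3 or LA-Tg replicate 1 or 3 (3.12 to 5.31, unadjusted p between 0.0674 and 0.119), in limma-voom (4.16, unadjusted p = 0.17) and with the replicate number as a block (4.23, unadjusted p = 0.0627). Against WT the values were 3.20 ± 1.69 in Prog-Tg and -2.40 ± 1.91 in LA-Tg, neither past the thresholds.

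Ccl2 and Ccl7, monocyte attractants that signal through Ccr2, were the most abundant chemokines. Ccl2 reached 1248, 1116 and 1929 CPM in Prog-Tg, 417, 1152 and 222 in LA-Tg and 967, 60.6 and 1548 in WT ECs. WT replicate 2 lay far below every other library, whereas WT replicate 3 was among the Prog-Tg values. The log2 fold change of 0.74 ± 0.97 for Prog-Tg versus WT was smaller than its standard error. Ccl7, its neighbour on chromosome 11, was likewise highest in Prog-Tg replicate 3 and lowest in WT replicate 2, with 248, 193 and 615 CPM in Prog-Tg, 51.8, 136 and 27.8 in LA-Tg and 167, 9.71 and 340.2 in WT ECs. Here the Prog-Tg libraries were all above the LA-Tg libraries, with a log2 fold change of 2.29 ± 1.09 (unadjusted p = 0.0676) that did not pass, whereas Prog-Tg versus WT gave 1.03 ± 1.05.

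Cxcl12, the ligand of Cxcr4 and Ackr3, ranged between 3.01 and 198 CPM and was highest in Prog-Tg replicate 3 and LA-Tg replicate 2. Its log2 fold change of 2.80 ± 1.38 for Prog-Tg versus WT (unadjusted p = 0.0763) did not pass. Cxcl16, a transmembrane chemokine for Cxcr6-bearing T cells, had 9.39, 58.0 and 43.9 CPM in Prog-Tg, 7.94, 74.2 and 8.14 in LA-Tg and 10.5, 2.5 and 11.9 in WT ECs. Prog-Tg replicates 2 and 3 and LA-Tg replicate 2 were high and WT replicate 2 was the lowest, and the Prog-Tg versus WT value was 2.16 ± 1.06 (unadjusted p = 0.0742). Cx3cl1, the membrane-bound fractalkine, differed little on average (-0.15 ± 0.78 for Prog-Tg and 0.04 ± 0.78 for LA-Tg versus WT). Its 3 highest libraries were replicate 1 of each genotype. The same 3 libraries were highest for Ccl5, a T cell attractant. It had 43, 0 and 3 counts in Prog-Tg, 63, 4 and 4 in LA-Tg and 82, 3 and 1 in WT replicates 1, 2 and 3.

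**Figure D3:**
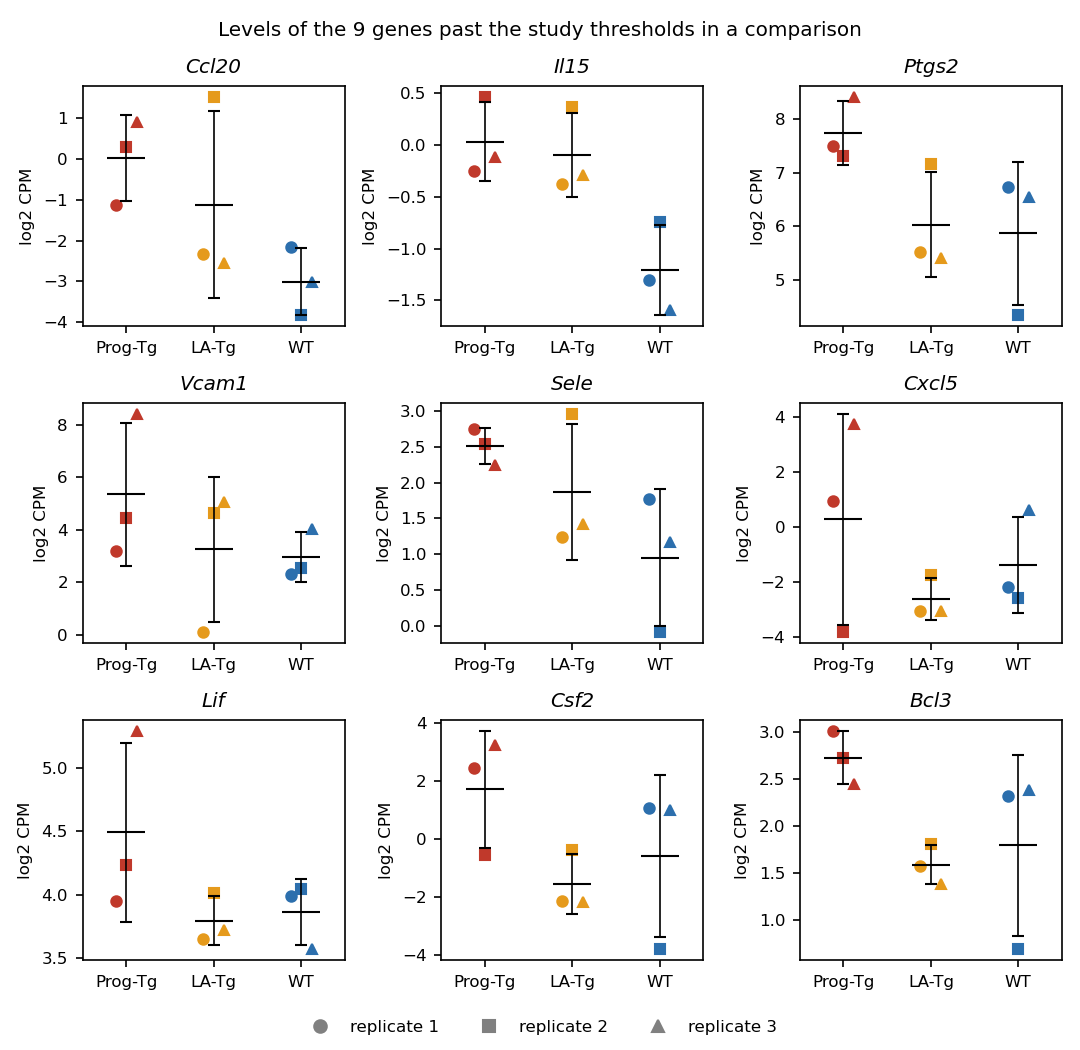
Level of the 9 genes past the study thresholds in at least 1 comparison, as log2 CPM per library (vertical axes differ between panels), with Prog-Tg, LA-Tg and WT from left to right. Symbols mark replicates 1 to 3, and bars give the mean and SD of the 3 libraries. Only Il15, Ccl20, Ptgs2, Sele and Bcl3 have all Prog-Tg libraries above all WT libraries.

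Among the cytokines, 8 of the 9 tested were above 0 for Prog-Tg versus WT, with a median of 1.28, 3 of 9 for LA-Tg versus WT (median -0.79) and 8 of 9 for Prog-Tg versus LA-Tg (median 0.82). Il15, which sustains natural killer cells and memory T cells, was past the thresholds in both transgenic genotypes. The gene (ENSMUSG00000031712, chromosome 8 from 82331632 to 82403222) stood at 0.769, 1.31 and 0.853 CPM in Prog-Tg, 0.701, 1.22 and 0.749 in LA-Tg and 0.335, 0.529 and 0.261 in WT ECs, resting on 14, 24 and 59 counts in Prog-Tg, 27, 21 and 15 in LA-Tg and 11, 11 and 5 in WT ECs. All 6 transgenic libraries lay above the 3 WT libraries, which both comparisons share. In log2 terms Il15 differed by 1.37 ± 0.44 for Prog-Tg versus WT (edgeR, unadjusted p = 0.0145, adjusted p = 0.83) and 1.23 ± 0.45 for LA-Tg versus WT (unadjusted p = 0.0239, adjusted p = 1.00), and 0.14 ± 0.43 between Prog-Tg and LA-Tg. The Prog-Tg call was lost without Prog-Tg replicate 2 or WT replicate 1 or 3 (1.11 to 1.28, unadjusted p between 0.0545 and 0.0573). The LA-Tg call was lost without LA-Tg replicate 2 or WT replicate 1 or 3 (0.94 to 1.15, unadjusted p between 0.0788 and 0.0854). With the replicate number as a block both calls were kept (1.38, unadjusted p = 0.00441 for Prog-Tg and 1.23, unadjusted p = 0.00762 for LA-Tg). Both were lost with the lymphatic marker mean as a term.

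Il33, a nuclear alarmin that signals through Il1rl1 once released, was the cytokine with the opposite order. It had 0.604, 0.218 and 0.708 CPM in Prog-Tg, 0.571, 0.116 and 0.799 in LA-Tg and 1.01, 1.92 and 1.25 in WT ECs, so that all WT libraries lay above all transgenic libraries. These levels rest on 11, 4 and 49 counts in Prog-Tg, 22, 2 and 16 in LA-Tg and 33, 40 and 24 in WT ECs. On the log2 scale Il33 differed by -1.41 ± 0.67 for Prog-Tg (unadjusted p = 0.0667) and -1.46 ± 0.67 for LA-Tg (unadjusted p = 0.0603) versus WT, which did not pass the thresholds with edgeR. For LA-Tg versus WT it passed, as lower, in DESeq2 and limma-voom. Il7, which supports lymphocyte survival, ranged 2.85-fold over all libraries and differed by 0.09 ± 0.45 for Prog-Tg versus WT.

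The colony-stimulating factors drive growth of macrophages (Csf1) and granulocytes (Csf3) or both (Csf2). Csf1 had the highest mean CPM of the cytokines, with 94.5, 432 and 299.6 CPM in Prog-Tg, 70.6, 560.4 and 60.4 in LA-Tg and 85.5, 50.8 and 154 in WT ECs. The highest libraries were LA-Tg replicate 2, Prog-Tg replicate 2 and Prog-Tg replicate 3, while the remaining 6 lay within 50.8 and 154 CPM. Its log2 fold change was 1.51 ± 0.93 for Prog-Tg and 1.25 ± 0.92 for LA-Tg versus WT. Csf3 had 199.96, 29.6 and 215 CPM in Prog-Tg, 64.1, 13.6 and 53.2 in LA-Tg and 110.0, 6.59 and 253 in WT ECs. It was lowest in the replicate 2 library of each genotype, and no comparison passed (0.27 ± 1.13 for Prog-Tg versus WT, 1.76 ± 1.16 for Prog-Tg versus LA-Tg).

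Csf2 (ENSMUSG00000018916, chromosome 11 from 54247271 to 54249667) differed between Prog-Tg and LA-Tg. Its level was 5.38, 0.6 and 9.39 CPM in Prog-Tg, 0.156, 0.697 and 0.15 in LA-Tg and 2.01, 0 and 1.93 in WT ECs, and the lowest Prog-Tg library was below the highest LA-Tg library. Csf2 differed from LA-Tg by 3.995 ± 1.48 on the log2 scale (edgeR, unadjusted p = 0.0262, adjusted p = 1.00), and from WT by 1.96 ± 1.32 in Prog-Tg and -2.03 ± 1.41 in LA-Tg. The call was lost without Prog-Tg replicate 3 or LA-Tg replicate 1 or 3 (3.20 to 3.67, unadjusted p between 0.0775 and 0.0806), in limma-voom (4.10, unadjusted p = 0.0573) and with the replicate block (3.12, unadjusted p = 0.124). Lif, a cytokine of the Il6 family (ENSMUSG00000034394, chromosome 11 from 4257557 to 4272514), had 15.4, 18.7 and 39.1 CPM in Prog-Tg, 12.5, 16.1 and 13.1 in LA-Tg and 15.8, 16.4 and 11.8 in WT ECs. Prog-Tg replicate 3 stood well above the other 8 libraries, which lay between 11.8 and 18.7 CPM. The log2 fold change was 0.82 ± 0.34 for Prog-Tg versus LA-Tg (unadjusted p = 0.0431, adjusted p = 1.00) and 0.74 ± 0.34 for Prog-Tg versus WT (unadjusted p = 0.0624). Without Prog-Tg replicate 3 the value versus LA-Tg was 0.30, and the call was also lost without any 1 of the LA-Tg libraries or WT replicate 1 or 2 (0.30 to 0.94 over these, unadjusted p between 0.0504 and 0.234) and with the block (0.76, unadjusted p = 0.0804).

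Il6, the acute-phase cytokine, stood at 1.98, 0.218 and 4.38 CPM in Prog-Tg, 0.0259, 0.058 and 0.749 in LA-Tg and 0.122, 0.0481 and 1.56 in WT ECs. Replicates 1 and 3 of Prog-Tg were the highest libraries, and the other 7 were between 0.0259 and 1.56 CPM. Il6 differed on the log2 scale by 1.98 ± 1.49 for Prog-Tg versus WT and 3.04 ± 1.59 versus LA-Tg (unadjusted p = 0.0905). With the replicate block Il6 passed versus LA-Tg (3.62, unadjusted p = 0.00448), as did Csf3 (1.52, unadjusted p = 0.034). Tnf, itself an activator of NF-kB, was rare, with 12, 7 and 53 counts in Prog-Tg, 4, 6 and 0 in LA-Tg and 18, 1 and 2 in WT ECs. Every Prog-Tg library exceeded every LA-Tg library in CPM (0.659, 0.382 and 0.766 against 0.104, 0.348 and 0), without passing (2.07 ± 1.07, unadjusted p = 0.0881), and WT replicate 1 was within the Prog-Tg range.

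Of the cytokine promoters, the NF-kB matches of Il6 and Csf1 and the AP-1 match of Lif are shown. Il6 and Csf1 varied over 10-fold between libraries, and Lif passed the thresholds between the transgenic genotypes. Capitals mark the match, read on the strand of the gene, from chr5:30013045-30013104 (plus strand), chr3:107760589-107760648 (minus strand) and chr11:4257318-4257371 (plus strand).
Il6: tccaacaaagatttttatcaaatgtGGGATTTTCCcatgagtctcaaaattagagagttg
Csf1: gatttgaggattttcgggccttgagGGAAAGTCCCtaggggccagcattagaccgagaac
Lif: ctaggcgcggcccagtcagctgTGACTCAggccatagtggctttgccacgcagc
The Il6 match begins 44 bases, the Csf1 match 154 bases and the Lif match 228 bases before the start. Csf2, Tnf, Il1b and Il33 had neither motif in their windows.

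Il1a and Il1b, the apical cytokines of the interleukin 1 pathway, were near the limit of detection and, with Cxcl10, did not pass the filter. Il1a had 14, 2 and 15 counts in Prog-Tg, 2, 0 and 0 in LA-Tg and 3, 0 and 0 in WT ECs. Each Prog-Tg library thus held counts and had a higher CPM (0.769, 0.109 and 0.217) than any LA-Tg or WT library, of which only replicate 1 of each genotype held any. Pooled over libraries, the ratio was 7.11 (95% interval 2.22 to 36.4) for Prog-Tg to WT and 11.1 (95% interval 2.83 to 95.8) for Prog-Tg to LA-Tg. These intervals cover counting error only. Il1b had 5, 0 and 2 counts in Prog-Tg, 0, 0 and 0 in LA-Tg and 0, 0 and 1 in WT ECs. The pooled Prog-Tg level was 1.67 times a floor of 3 counts in LA-Tg, which leaves out the counting error in Prog-Tg and is no lower limit. The 95% interval of the Prog-Tg to WT ratio of 4.82 (0.619 to 217) spans 1. Cxcl10, an interferon-induced T cell attractant, had 10, 9 and 35 counts in Prog-Tg, 19, 3 and 1 in LA-Tg and 12, 0 and 1 in WT ECs. In CPM it was 0.549, 0.491 and 0.506 in Prog-Tg, 0.493, 0.174 and 0.05 in LA-Tg and 0.366, 0 and 0.0522 in WT ECs, so all Prog-Tg libraries were above all WT libraries and LA-Tg replicate 1 was among the Prog-Tg values.

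Log2 fold changes of the regulators were smaller. Of the 10 tested, 8 were above 0 for Prog-Tg versus WT, 5 for LA-Tg versus WT and 8 for Prog-Tg versus LA-Tg, with medians of 0.39, 0.07 and 0.24. Nfkb1, a precursor of the main DNA-binding subunit, was the most even of all listed genes, with 159, 157 and 152 CPM in Prog-Tg, 147, 159.5 and 140.2 in LA-Tg and 144, 147 and 172 in WT ECs (0.02 ± 0.12 for Prog-Tg versus WT). Nfkb2 and Relb, subunits of the non-canonical branch, differed by 0.36 ± 0.40 and 0.50 ± 0.51 in the same comparison. Bcl3, an atypical IkB protein that binds subunit dimers in the nucleus (ENSMUSG00000053175, chromosome 7 from 19808462 to 19822770), was past the thresholds between the transgenic genotypes. It had 8.02, 6.54 and 5.39 CPM in Prog-Tg, 2.91, 3.42 and 2.55 in LA-Tg and 4.94, 1.54 and 5.16 in WT ECs. The Prog-Tg libraries were above all others, and LA-Tg libraries lay within the WT range. On the log2 scale Bcl3 differed by 1.17 ± 0.44 versus LA-Tg (edgeR, unadjusted p = 0.029, adjusted p = 1.00) and 0.77 ± 0.44 versus WT (unadjusted p = 0.114). The call was lost without Prog-Tg replicate 1 or 2 or LA-Tg replicate 1 or 3 (1.01 to 1.18, unadjusted p between 0.0558 and 0.0847) and was kept with the replicate block (1.14, unadjusted p = 0.046).

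Tnfaip3, the ubiquitin-editing enzyme A20 that shuts the pathway down, had the largest log2 fold change versus WT among the regulators. Its level was 13.8, 82.8 and 31.6 CPM in Prog-Tg, 5.03, 95.8 and 5.24 in LA-Tg and 8.53, 4.61 and 9.28 in WT ECs. All Prog-Tg libraries were above all WT libraries, but the highest library was LA-Tg replicate 2, while the other LA-Tg libraries were within the WT range. Log2 fold changes of 2.51 ± 1.19 for Prog-Tg (unadjusted p = 0.0658) and 2.24 ± 1.18 for LA-Tg versus WT did not pass. Nfkbia, the classical IkB inhibitor and an early target of the pathway, was the most abundant regulator with 257, 357 and 201 CPM in Prog-Tg, 206, 350.2 and 208 in LA-Tg and 231, 165 and 215 in WT ECs. Replicates 2 of Prog-Tg and LA-Tg were the 2 highest, and the log2 fold change was 0.41 ± 0.29 for Prog-Tg versus WT. Tnfaip2, a Tnf-induced gene, ran the other way across libraries, with 192, 135 and 188 CPM in Prog-Tg, 242, 113 and 287 in LA-Tg and 217, 179 and 153 in WT ECs, lowest in replicates 2 of LA-Tg and Prog-Tg (-0.09 ± 0.33 for Prog-Tg versus WT). Nfkbie (IkB epsilon), Traf1 (an adaptor of Tnf receptors) and Birc3 (a ubiquitin ligase of that receptor complex) differed by 0.17 ± 0.53, -0.28 ± 0.22 and 0.69 ± 0.66 for Prog-Tg versus WT, none of them past the thresholds.

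Promoter stretches of 3 inhibitors of the pathway are shown because each held the NF-kB consensus, marked in capitals, next to its own start. They were read on the minus strand for Nfkbia (chr12:55492648-55492701) and Tnfaip3 (chr10:19015411-19015560) and on the plus strand for Nfkbie (chr17:45555569-45555628).
Nfkbia: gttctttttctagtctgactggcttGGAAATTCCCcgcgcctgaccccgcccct
Nfkbie: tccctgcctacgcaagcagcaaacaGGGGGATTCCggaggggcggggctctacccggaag
Tnfaip3: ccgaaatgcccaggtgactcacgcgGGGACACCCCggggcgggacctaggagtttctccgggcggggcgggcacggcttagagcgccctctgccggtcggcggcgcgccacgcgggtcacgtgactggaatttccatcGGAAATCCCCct
The match of Nfkbia begins 29 bases and that of Nfkbie 106 bases before the start. Tnfaip3 held 2, at 125 and 12 bases, and both it and Nfkbie also held an AP-1 element. Bcl3 and Nfkb2 had NF-kB matches too, whereas Tnfaip2, Traf1 and Birc3 had neither motif.

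The effectors carry out the endothelial response, and all 4 were above 0 in each comparison. Their median log2 fold change was 1.51 for Prog-Tg versus WT, 0.91 for LA-Tg versus WT and 1.00 for Prog-Tg versus LA-Tg. Ptgs2, the inducible cyclooxygenase of prostaglandin synthesis (ENSMUSG00000032487, chromosome 1 from 150100031 to 150108227), reached 180.5, 158 and 339 CPM in Prog-Tg, 45.8, 142 and 42.8 in LA-Tg and 107, 20.2 and 93.3 in WT ECs. The 3 Prog-Tg libraries were above all 6 others. Prog-Tg exceeded WT by 1.62 ± 0.69 on the log2 scale (edgeR, unadjusted p = 0.0446, adjusted p = 0.83) and LA-Tg by 1.56 ± 0.69 (unadjusted p = 0.0517), while LA-Tg versus WT was 0.07 ± 0.67. Versus LA-Tg, Ptgs2 passed in DESeq2 and limma-voom. The call versus WT was lost without Prog-Tg replicate 1 or 3 or WT replicate 2 or 3 (1.18 to 1.83, unadjusted p between 0.056 and 0.144). It was also lost with the replicate number as a block (1.61, unadjusted p = 0.0897).

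Sele, the E-selectin on which leukocytes roll (ENSMUSG00000026582, chromosome 1 from 164048234 to 164057677), had 6.64, 5.73 and 4.68 CPM in Prog-Tg, 2.28, 7.72 and 2.60 in LA-Tg and 3.35, 0.865 and 2.19 in WT ECs. Prog-Tg libraries were close together and above all WT libraries, but LA-Tg replicate 2 was the highest. Sele differed on the log2 scale by 1.40 ± 0.60 for Prog-Tg versus WT (edgeR, unadjusted p = 0.0472, adjusted p = 0.83) and 0.96 ± 0.60 for LA-Tg versus WT. Leaving out any 1 Prog-Tg library, LA-Tg replicate 3 or WT replicate 2 or 3 ended the call (1.03 to 1.52, unadjusted p between 0.0519 and 0.116). Sele also missed the thresholds with the replicate number as a block (1.37, unadjusted p = 0.0817). Its promoter held an AP-1 element, beginning 73 bases before the start, and is shown because Sele was the one effector past the thresholds with a motif in its window (chr1:164048136-164048192, plus strand, capitals mark the element).
Sele: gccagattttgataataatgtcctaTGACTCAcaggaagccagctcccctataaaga
The windows of Ptgs2 and Icam1 held neither motif.

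Vcam1 and Icam1 are the ligands by which leukocyte integrins hold on to endothelium. Vcam1 (ENSMUSG00000027962, chromosome 3 from 116109949 to 116129688) had 9.11, 21.5 and 344 CPM in Prog-Tg, 0.986, 24.8 and 33.02 in LA-Tg and 4.84, 5.82 and 16.3 in WT ECs. The level in Prog-Tg replicate 3 was over 10 times that of any other library, and the other Prog-Tg libraries overlapped both LA-Tg and WT. The log2 fold change was 3.80 ± 1.58 for Prog-Tg versus WT (edgeR, unadjusted p = 0.0411, adjusted p = 0.83), and without Prog-Tg replicate 3 it was 0.77 (unadjusted p = 0.526). The call was also lost without LA-Tg replicate 2 or 3 or any 1 WT library (unadjusted p between 0.053 and 0.526 over all these) and in limma-voom (2.65, unadjusted p = 0.19). The replicate number as a block ended it as well (2.41, unadjusted p = 0.0645). Prog-Tg replicate 3 also held the highest summed fibroblast markers (839 CPM), and their part in this value was not tested. Icam1 had 155, 267 and 109 CPM in Prog-Tg, 94.1, 332 and 68.6 in LA-Tg and 125, 34.7 and 114 in WT ECs. LA-Tg replicate 2 and Prog-Tg replicate 2 were highest and WT replicate 2 lowest, and the log2 fold change of 0.96 ± 0.69 for Prog-Tg versus WT did not pass.

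**Figure D4:**
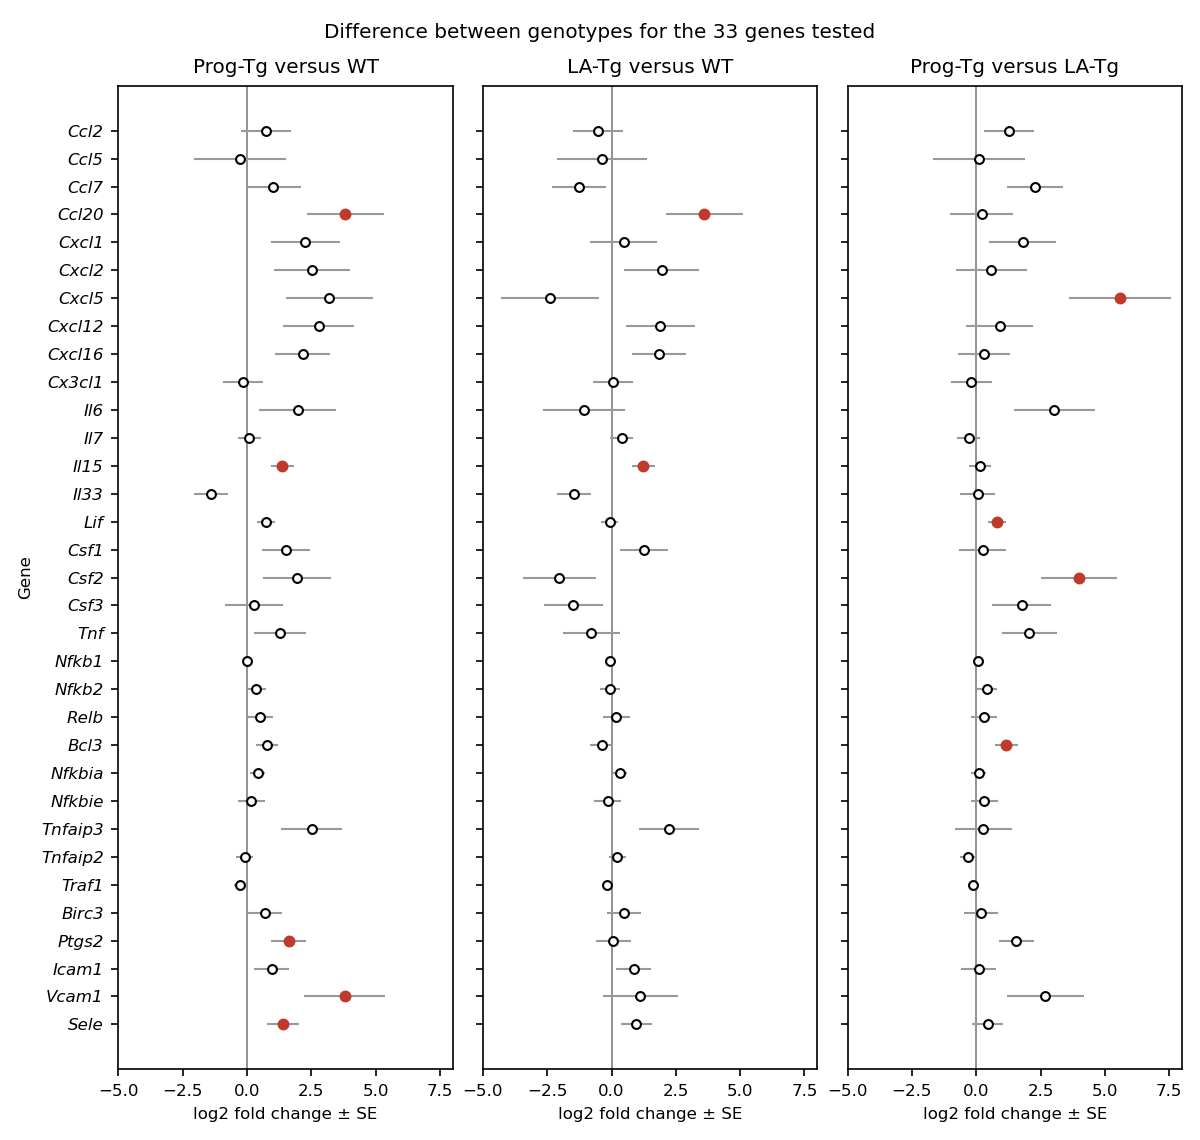
Log2 fold change (horizontal axis, bars are standard errors) of the 33 tested genes for Prog-Tg versus WT, LA-Tg versus WT and Prog-Tg versus LA-Tg, from left to right. Filled red points passed the study thresholds, 5, 2 and 4 genes, and open points did not. For Prog-Tg versus WT 28 points lie to the right of 0.

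In 9 of the 33 tested genes the 2 highest libraries were Prog-Tg replicate 2 and LA-Tg replicate 2, namely Cxcl16, Il7, Il15, Csf1, Relb, Nfkbia, Tnfaip3, Birc3 and Icam1. In 7 genes the 2 highest were both Prog-Tg, and 22 had their lowest value in a WT library, 20 of these in WT replicate 2. By genotype mean, 27 genes were highest in Prog-Tg, 3 in LA-Tg and 3 in WT, and 3 were lowest in Prog-Tg, 14 in LA-Tg and 16 in WT ECs. The order of LA-Tg and WT thus differed between genes. These counts were not set beside all genes, so they describe the listed genes only. Between Prog-Tg and LA-Tg the libraries of the same replicate number deviated together. With the number as a block 3 genes passed instead of 4, Il6, Csf3 and Bcl3, with a median of 0.59. Over all genes 412 were then at an unadjusted p under 0.05, against 250 without the block.

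A further 83 genes of the pathway were counted, 63 of them above the filter. The 15 subunits and kinases included Rela, Rel and the IkB kinases. Of these 15, 12 were above 0 for Prog-Tg versus WT with a median of 0.29, and the IkB kinase Ikbkb was the lowest (-0.51). Of all 63 tested, 6 had Prog-Tg libraries above all WT libraries and 1 below (6.56% and 7.17% of all genes), 5 of the 6 being subunits and kinases. The groups did not overlap for 0 of the 63 in LA-Tg versus WT, beside 1.92% higher and 2.03% lower of all genes. For Prog-Tg versus LA-Tg they did not overlap for 1 higher and 2 lower, beside 2.76% and 3.14% of all genes. Of 12 tested feedback genes 10 were above 0 (median 0.28), of 21 tested receptors and adaptors 13 (median 0.06) and of 15 tested other targets 13 (median 0.82). For LA-Tg versus WT the 4 medians were 0.07, 0.12, 0.03 and 0.17, and for Prog-Tg versus LA-Tg 0.19, 0.20, 0.02 and 0.43. Of the 63 tested, 0 passed the study thresholds in either direction for Prog-Tg or LA-Tg versus WT. Over all genes 0.939% were higher and 1.82% lower for Prog-Tg, and 0.35% and 0.329% for LA-Tg. For Prog-Tg versus LA-Tg 1 was higher and 0 lower, beside 0.555% and 0.693% of all genes. The higher gene was Saa3, an acute-phase reactant with 1.54, 0.327 and 0.838 CPM in Prog-Tg, 0.0519, 0.232 and 0 in LA-Tg and 0.396, 0 and 0.574 in WT ECs (3.32 ± 1.29, unadjusted p = 0.0312, adjusted p = 1.00). All Prog-Tg libraries lay above the LA-Tg libraries, and WT libraries overlapped both. The remaining 20 pathway genes were too low to test, and Ccr2, Ccr6 and Cxcr2, the receptors of Ccl2 and Ccl7, of Ccl20 and of the neutrophil chemokines, had 0 counts in every library.

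Of the 36 genes, 11 overlap exons of a gene on the opposite strand, including Csf2 (96 bases), Bcl3 (161 bases), Vcam1 (61 bases), Cxcl16 (552 bases) and Icam1 (511 bases). The library kit marked strand, but whether counting used it is not given in the sources used here, so reads of such partners may be included.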

How the data were processed

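Raw counts per gene of 9 EC poly(A) libraries, as deposited by the authors, were used, and the miR counts of the other libraries were not. Per the paper's methods and the submitters' processing notes, STAR 2.5.1b (2 passes, GRCm38) aligned the reads, HTSeq 0.5.4p3 counted them, and the counts were tested with edgeR, limma and voom in R 3.3.2. No molecular identifiers were described, so intervals and floors cover counting error only. The supplementary tables of the study hold log2 fold changes and p values, which were not used. Groups follow the genotype given in the sample labels.

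Counts were fitted in R 4.3.3 with edgeR 4.0.16 (quasi-likelihood F test, all 9 libraries, filterByExpr with a minimum count of 10 and a minimum total of 15, TMM scaling). Unadjusted p values come from this fit, and adjusted p values are by Benjamini and Hochberg over the 14584 genes kept. Standard errors are the log2 fold change over the signed root of F. The filter kept 33 of the 36 genes. The script was tested on simulated data. An exact permutation test of 3 against 3 libraries cannot go below 0.1 and was not used. Library totals ranged between 17961152 and 67602012 counts.

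The genes and lists were chosen with earlier results of these data known. Every library was given for genes past the study thresholds (unadjusted p under 0.05, fold change over 1.5) or with groups that did not overlap, and for the 2 genes of each role with the highest mean CPM. Genes under 1 CPM on average were given by counts. Pathway genes outside the list were given by library only past the thresholds, and Rela, Rel and Ikbkb were named besides. Receptors at 0 counts, and Cxcl1, Cxcl12, Cxcl16, Cx3cl1, Il6, Il7 and Nfkb1, were added after their values were seen.

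Alternatives were DESeq2 1.42.0, limma-voom (limma 3.58.1), no filter, a filter of over 1 CPM in 3 libraries, RLE scaling, library size alone, a block for the replicate number, fits restricted to the 2 groups compared, the lymphatic marker mean as a term and each library left out. Deviations of same-numbered libraries from their genotype means correlated at 0.67, 0.63 and 0.35 between Prog-Tg and LA-Tg, all over 0.1. These numbers were taken as pairs in the alternative fit with the block alone, and the main fit had no block. The block was fitted over all 9 libraries, so WT libraries also enter its values. The pairing comes from the values, since the labels do not say that a number marks a litter. For WT and Prog-Tg ECs the paper describes cells from littermate pairs, but ties no replicate number to a pair.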

Additional observations from a re-analysis of the deposited data

How the results depend on the processing

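In brackets are the numbers of all genes at an unadjusted p under 0.05 in the same fit. Of the listed genes 5 passed the thresholds for Prog-Tg versus WT (496). DESeq2 gave 9 (816), limma-voom 6 (558), no filter 11 (1133), only the 2 groups compared 8 (921) and the replicate block 2 (669). The lymphatic marker mean as a term gave 0 (82), and leaving out each library 1 to 10 (148 to 1252). For LA-Tg versus WT 2 passed (121), against 5 by DESeq2 (214) and, in limma-voom, 1 higher and 1 lower (92). A filter of over 1 CPM in 3 libraries gave 1 (78), only the 2 groups 1 (72) and the block 1 (294). The lymphatic term gave 1 (102), and leaving out each library 0 to 4 (84 to 430). For Prog-Tg versus LA-Tg 4 passed (250), against 7 by DESeq2 (414), 5 in limma-voom (380) and 9 with no filter (744). The block gave 3 (412), and leaving out each library 0 to 13 (96 to 1725). Without WT replicate 2 and LA-Tg replicate 2, chosen after seeing the data, 7, 9 and 19 passed in these comparisons (560, 561 and 2243 of all genes at an unadjusted p under 0.05), and the medians for LA-Tg versus WT and Prog-Tg versus LA-Tg were -0.65 and 1.25.

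Medians of the listed genes over single libraries left out ranged between 0.69 and 1.27 for Prog-Tg versus WT, -0.36 and 0.39 for LA-Tg versus WT, and 0.15 and 1.25 for Prog-Tg versus LA-Tg. Over all genes 0 passed an adjusted p of 0.05, against 2 for Prog-Tg versus WT and 7 for Prog-Tg versus LA-Tg by DESeq2, and 0 to 1 for Prog-Tg versus WT on leaving out each library. RLE scaling and library size alone left the count of listed genes past the thresholds within 1.5 times. The same-numbered libraries of Prog-Tg and WT correlated at 0.49, -0.03 and 0.47 and those of LA-Tg and WT at 0.40, -0.36 and -0.07. These numbers were therefore not taken as pairs, although the block was fitted over all 9 libraries. With the block Il6 and Il15 passed for Prog-Tg versus WT and Ccl20, Ptgs2, Vcam1 and Sele did not, and Il15 passed for LA-Tg versus WT. Genes with few counts (Ccl5, Ccl20, Cxcl10, Il1a, Il1b, Il15, Il33, Tnf) are limited by depth, and small differences in them were not detectable.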
